A study of Mus musculus with 6 samples.

Results

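In mouse embryonic stem cells depleted of Ino80, 592 promoter loops were listed in both libraries and in none of the 4 libraries of the other groups. They are 592 of the 49634 same-chromosome loops listed in any of the 6 libraries, and they start from 549 baited promoter fragments. A loop here is a pair of places, a baited fragment and another end, with an interaction score given by the authors. The 592 loops were chosen by this listing alone: the same bait and the same other end in both Ino80KD lists, on 1 chromosome, and in no Control or Brg1KD list. A bait on chromosome 2, which the authors' group lists lack, was left out. Because all 6 lists were used to choose them, every value below that comes from these lists is a description and carries no test.

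Ino80KD cells were E14 cells transfected with esiRNA, a pool of short interfering RNAs, against Ino80, and were collected 48 h later. Brg1KD cells received esiRNA against Smarca4, which encodes Brg1, and Control cells received esiRNA against EGFP, a gene that these cells lack. E14 is a male mouse embryonic stem cell line, labelled wild type and grown here with serum and LIF. Each of the 3 groups had 2 libraries of promoter-capture Micro-C, in which chromatin is crosslinked, cut between nucleosomes with micrococcal nuclease, joined by ligation and captured with promoter probes. Replicate 1 of each group belonged to batch 1, Control replicate 2 to batch 2, and replicate 2 of both depletions to batch 3, so batch 3 holds no Control library. Whether the replicates were separate cultures is not stated, so differences between them may be technical. These are contact libraries without RNA, in which neither the depletion nor the stem cell markers could be checked. No bait was named for Ino80. The bait of Smarca4 had 2 and 2 loops in Ino80KD libraries, 6 and 3 in Brg1KD libraries and 1 and 1 in Control libraries, none of them among the 592. The lists held 14675 and 14113 same-chromosome loops in Ino80KD libraries, 12254 and 12962 in Brg1KD libraries and 15322 and 14394 in Control libraries. Read depth per library is unknown from these files.

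INO80 is a chromatin remodeller, a large complex built around the Ino80 ATPase that slides nucleosomes and acts on the histone variant H2A.Z. In mouse embryonic stem cells it is known to occupy enhancers and promoters of pluripotency genes and to keep them open. BAF, whose ATPase in these cells is Brg1, is a remodeller of another family that makes enhancers accessible. Contacts between promoters and distant places join promoters to enhancers, to polycomb-bound promoters of other developmental genes, or to other active gene clusters such as those of histone genes.

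The 10 loops with the highest lower score included loops of developmental genes, of histone genes and of a pair of related enzyme genes, beside others named further on. Promoter windows are shown for 6 genes on baits whose loops are described below. They are Mnx1, a motor neuron homeobox gene, and Hs3st3b1 and Hs3st3a1, which encode heparan sulfate 3-O-sulfotransferases and were joined to each other. Sfmbt2, a gene for a polycomb-type protein, was joined to Gata3 by loops that are not among the 10. H4c17 and H3c8 are histone genes whose baits were joined to each other. Each window runs from 250 bases before the gene start to 50 after it, 5′ to 3′, from RefSeq on GRCm38.p6, the assembly of mm10. Capitals mark CpG dinucleotides. The windows are chr5:29478421-29478720 (minus strand) for Mnx1, chr11:63922235-63922534 (minus) for Hs3st3b1, chr11:64435082-64435381 (plus) for Hs3st3a1, chr2:10372186-10372485 (plus) for Sfmbt2, chr13:21811496-21811795 (plus) for H4c17 and chr13:23535168-23535467 (plus) for H3c8.
Mnx1: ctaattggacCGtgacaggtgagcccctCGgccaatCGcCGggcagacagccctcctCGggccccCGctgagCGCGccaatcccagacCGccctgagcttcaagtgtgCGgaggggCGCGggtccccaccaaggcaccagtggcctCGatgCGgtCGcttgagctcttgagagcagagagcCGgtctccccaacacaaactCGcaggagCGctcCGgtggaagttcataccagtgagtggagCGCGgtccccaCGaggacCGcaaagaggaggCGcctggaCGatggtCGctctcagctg
Hs3st3b1: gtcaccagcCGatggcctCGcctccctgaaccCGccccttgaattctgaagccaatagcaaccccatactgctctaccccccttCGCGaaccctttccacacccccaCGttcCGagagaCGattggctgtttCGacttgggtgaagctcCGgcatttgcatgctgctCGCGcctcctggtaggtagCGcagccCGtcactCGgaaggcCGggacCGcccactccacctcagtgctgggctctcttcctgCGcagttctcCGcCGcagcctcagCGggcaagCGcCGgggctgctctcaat
Hs3st3a1: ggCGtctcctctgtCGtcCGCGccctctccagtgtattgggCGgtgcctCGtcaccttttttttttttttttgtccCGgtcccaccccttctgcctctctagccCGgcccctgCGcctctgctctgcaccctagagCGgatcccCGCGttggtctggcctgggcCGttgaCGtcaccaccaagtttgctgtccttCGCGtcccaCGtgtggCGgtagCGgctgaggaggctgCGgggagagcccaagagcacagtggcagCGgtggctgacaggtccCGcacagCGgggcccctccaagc
Sfmbt2: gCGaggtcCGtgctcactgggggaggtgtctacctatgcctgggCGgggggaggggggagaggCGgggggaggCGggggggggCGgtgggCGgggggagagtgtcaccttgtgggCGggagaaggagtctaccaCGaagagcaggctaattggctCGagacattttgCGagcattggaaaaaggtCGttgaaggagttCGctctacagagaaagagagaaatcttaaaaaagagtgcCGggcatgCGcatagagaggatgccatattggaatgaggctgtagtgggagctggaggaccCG
H4c17: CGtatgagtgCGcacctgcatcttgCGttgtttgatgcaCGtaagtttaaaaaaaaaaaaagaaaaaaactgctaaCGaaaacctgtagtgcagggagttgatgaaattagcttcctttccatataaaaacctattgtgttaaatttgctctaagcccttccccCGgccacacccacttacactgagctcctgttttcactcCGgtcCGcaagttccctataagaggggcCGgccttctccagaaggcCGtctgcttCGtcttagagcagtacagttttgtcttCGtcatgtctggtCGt
H3c8: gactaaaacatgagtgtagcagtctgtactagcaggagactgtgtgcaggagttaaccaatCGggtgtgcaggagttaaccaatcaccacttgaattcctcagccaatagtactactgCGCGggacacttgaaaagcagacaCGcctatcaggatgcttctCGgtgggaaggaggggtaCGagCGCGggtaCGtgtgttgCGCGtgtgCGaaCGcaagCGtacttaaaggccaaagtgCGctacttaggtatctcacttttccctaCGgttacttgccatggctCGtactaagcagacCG

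The windows held 26 CpGs at Mnx1, 23 at Hs3st3b1, 23 at Hs3st3a1, 16 at Sfmbt2, 13 at H4c17 and 18 at H3c8. Their observed over expected CpG ratios lay between 0.72 at Hs3st3a1 and 0.91 at H3c8, above the median of 0.60 over all baits. The number of CpGs at H4c17 was below the median over all baits, which was 14. Over all baits with a member, 253 of 453 promoter windows of protein-coding genes had a ratio of at least 0.6, which is 55.8% (95% Wilson interval 51.2 to 60.4). At baits with a loop in both Ino80KD libraries and no member it was 964 of 2003 windows, or 48.1% (45.9 to 50.3), and over all baits 49.9%. Here and below, Wilson intervals cover counting error only, and loops that share baits and libraries are not independent. Medians of this ratio were 0.66 at member baits, 0.57 at baits without a member and 0.60 over all baits.

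Short motifs were searched on both strands of the same windows. The YY1 core (GCCATNTT) was in 6.84% of windows at member baits, against 6.69% at baits with a loop in both Ino80KD libraries and no member and 6.73% over all baits. The CTCF core (CCANNAGGG) was in 6.62%, 6.64% and 6.11% of the same windows. The NRF1 site (GCGCATGCG) was in 2.65%, 1.60% and 2.46%, and the octamer (ATTTGCAT), which OCT proteins bind, in 3.09%, 1.90% and 1.73%. The octamer was in 14 member windows, among them those of H2ac12 and H2bc12. H2ac12 and H2bc12 share a bait, as do Bcl2l12 and Irf3, whose windows also held it. Windows of genes on the same bait were counted separately and can hold the same site. The octamer's interval at member baits (1.85 to 5.12) overlapped that at the baits without a member (1.39 to 2.59). In the windows shown, the Hs3st3b1 window held 1 octamer, which begins 97 bases before the gene start, and the Sfmbt2 window held 1 YY1 core just after the gene start. A match is no more than letters. The YY1 and CTCF shares at member baits were near those at other baits. The NRF1 and octamer shares were higher than at baits without a member, a difference that was not tested.

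How common such loops were can be read from the listing itself. Of 4976 loops listed in both Ino80KD libraries, 592 were in no other library, 808 in 1, 970 in 2, 1060 in 3 and 1546 in all 4 others. The share in no other library was thus 11.9%, against 391 of 3918 loops (9.98%) for the loops of both Brg1KD libraries and 624 of 5073 (12.3%) for those of both Control libraries. Loops listed in a single group were therefore about as frequent in Control as after Ino80 depletion.

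**Figure D1:**
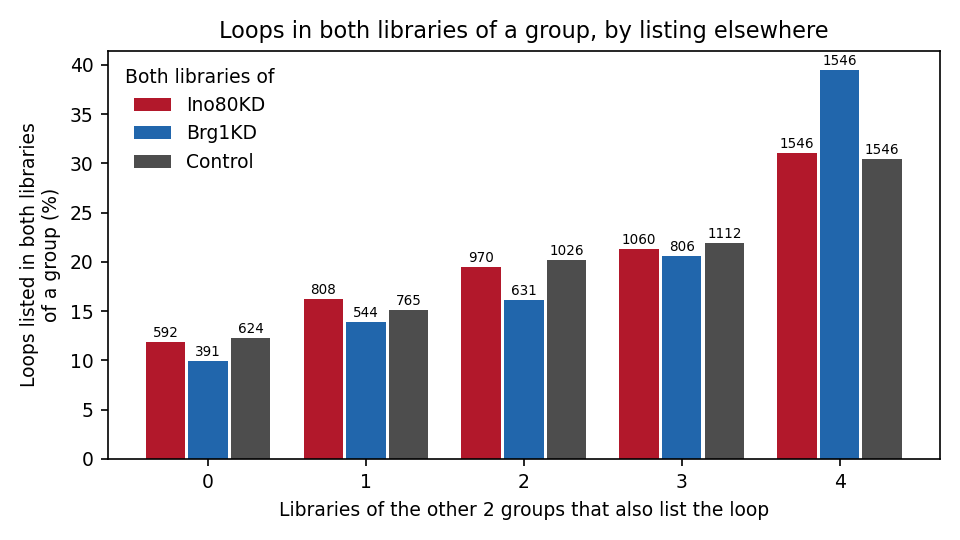
Loops listed in both libraries of a group (bars, % of that group's loops, with the number of loops above each bar) by how many of the 4 libraries of the other groups also list them. The Ino80KD bar at 0 is the 592 loops described here; the Brg1KD and Control bars at 0 hold 391 and 624 loops.

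The 592 loops scored low. Their median score was 5.84 in Ino80KD replicate 1 and 5.81 in replicate 2, where lists begin at 5. The lower of a loop's 2 scores had a median of 5.41, an interquartile range of 5.15 to 5.87 and a maximum of 14.9. For the loops of both Ino80KD libraries that another library also listed, the median lower score was 6.17, and it was 5.64, 5.7, 6.04 and 7.23 for loops found in 1, 2, 3 and 4 other libraries. In their own lists, the median lower score was 5.41 for Brg1KD-only loops and 5.45 for Control-only loops. The lower score ranks a loop by the weaker of its listings, and assumes that both Ino80KD lists were scored alike. Of the 592, 471 had a lower score under 6 and 327 (55.2%) under 5.5.

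The minimum score decides membership at the edge. Just inside it, the loop of Acly, the citrate-cleaving enzyme, scored 5 and 5.67, that of Mgat1, a glycosyltransferase of N-glycan synthesis, 6.55 and 5, and that of Sptb, the erythroid spectrin, 5 and 5.21 in the Ino80KD libraries. Just outside, the loop of Clec2i, a lectin gene, scored 6.67 and 6.39 in the Ino80KD libraries and 5 in Control replicate 2. Atat1, the tubulin acetyltransferase, had a loop at 7.01 and 7.85 in the Ino80KD libraries and 5.01 in Brg1KD replicate 2. Of the 808 loops found in 1 further library, 214 (26.5%) scored under 5.5 there. A loop that is not listed has no score in these files, and that does not show that the contact is absent.

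**Figure D2:**
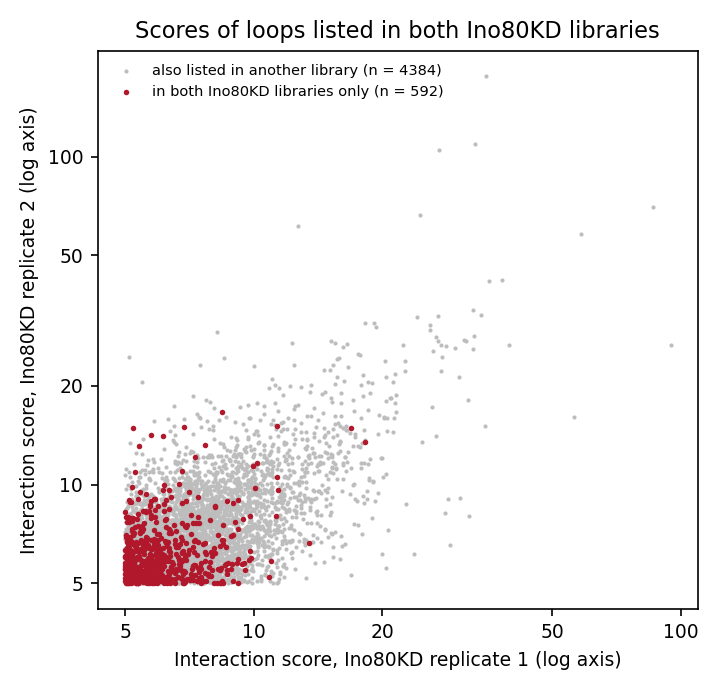
Interaction score of each loop of both Ino80KD libraries in replicate 1 (x) and replicate 2 (y), on log axes. Red points are the 592 loops in no other library and grey points the 4384 also listed elsewhere; most red points lie near the minimum of 5, and few have both scores above 8.

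Neighbouring loops were often listed in the other groups. With both ends within 5 kb, 340 of the 592 (57.4%) had a loop in at least 1 of the other 4 libraries, and 64 (10.8%) had one in all 4. The neighbours were in 174 and 148 cases in Brg1KD libraries and in 220 and 192 cases in Control libraries. Scores of neighbours are given below beside those of the members, but each list was scored on its own, so no order between libraries is read from them. The remaining 252 (42.6%) had no such neighbour. The share with a neighbour in at least 1 library of the other groups, 57.4% here, was 54.0% for Brg1KD-only loops and 51.6% for Control-only loops. In 4 cases another library listed the same places with bait and other end exchanged. Within 50 kb at both ends, 52 of the 592 had no loop of the other 4 libraries and 326 had loops of all 4. A neighbour below has both ends within 5 kb, so members without a neighbour can still have loops of other libraries within 50 kb.

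The 592 loops were longer by median than shared ones. Their median span was 238 kb (95% interval of the median 213 to 271), the interquartile range 124 to 481 kb, and the extremes 2.39 kb and 41.9 Mb. Loops of both Ino80KD libraries that were also listed elsewhere had a median span of 162 kb (158 to 167), and the median was 203, 179, 167 and 130 kb for loops in 1, 2, 3 and 4 other libraries. Loops listed only in Brg1KD had a median of 242 kb and those only in Control 293 kb, so long spans were not limited to Ino80 depletion. Very long loops were 64 of 592 at 1 Mb or more, which is 10.8% (8.56 to 13.6). The share was 11 of 391 or 2.81% for Brg1KD-only loops, 52 of 624 or 8.33% for Control-only loops and 219 of 4384 or 5.00% for the loops shared with other libraries. Of the 64, 22 joined histone genes or their neighbours within 1 region of chromosome 13 (21665302 to 23985276). Without loops inside that region the shares were 7.42% (5.54 to 9.88), 2.81%, 7.2% and 3.71% in the same order. That region held 26 of the 592 loops, none of the 391 Brg1KD-only loops, 13 of the 624 Control-only loops and 98 of the 4384 shared loops.

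**Figure D3:**
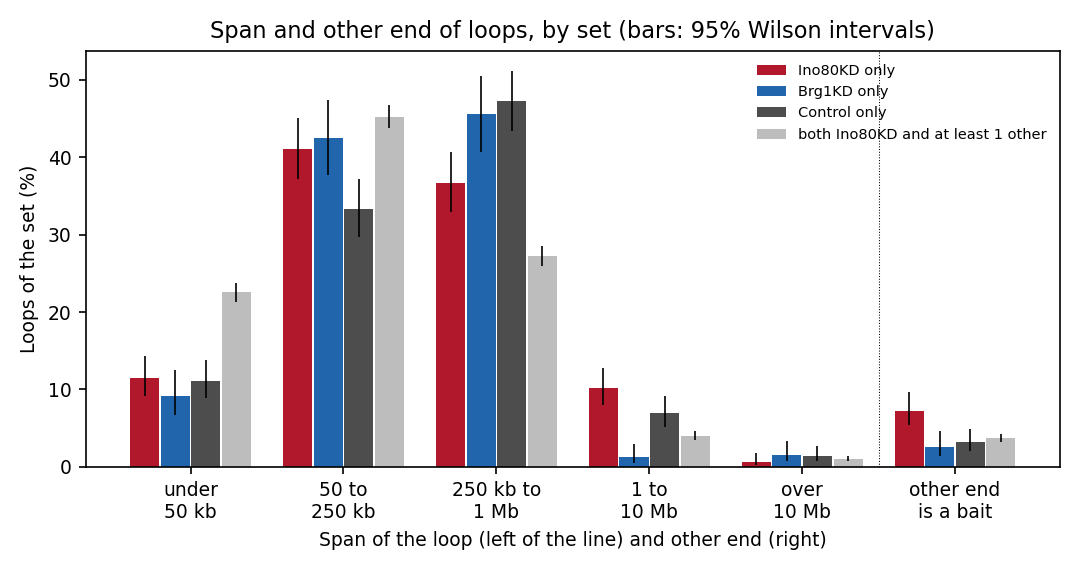
Share of loops (%) in each span class, and share whose other end is itself a bait (right of the dotted line), for loops listed only in both libraries of Ino80KD, Brg1KD or Control and for those of both Ino80KD libraries listed elsewhere too. Error bars are 95% Wilson intervals. The 1 to 10 Mb class held 10.1% of Ino80KD-only, 1.28% of Brg1KD-only, 6.89% of Control-only and 3.97% of shared loops.

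Bait-to-bait loops, which join a pair of captured promoter fragments, made up 43 of the 592, or 7.26% (5.44 to 9.64). The share was 10 of 391 or 2.56% (1.40 to 4.64) for Brg1KD-only loops, 20 of 624 or 3.21% for Control-only loops and 162 of 4384 or 3.70% (3.18 to 4.30) for shared loops. Without the histone region it was 6.18% (4.48 to 8.48), 2.56%, 2.95% and 3.52%. For loops in 1, 2, 3 and 4 other libraries, the bait-to-bait share was 5.57% (4.19 to 7.37), 4.02%, 2.92% and 3.04%. Without the histone region these were 5.10% (3.76 to 6.86), 3.82%, 2.70% and 3.09%. Of the 43, 10 had no loop within 5 kb in another library, against 242 of the other 549 loops, a difference that was not tested. The other end of 16 loops held a gene start without being a bait, and that of 227 a gene end. For 153 it lay inside a gene and for 153 outside protein-coding genes. The share that ended outside genes was 25.8% (22.5 to 29.5) of the 592. It was 33.5% (29.0 to 38.3) of the Brg1KD-only loops, 39.7% (36.0 to 43.6) of the Control-only loops and 32.3% of the shared loops. The baits themselves held a gene start in 348 of 549 cases and were named by a protein-coding gene in 519.

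Histone genes on chromosome 13 gave the densest group. This cluster holds genes for the core and linker histones made in S phase, in blocks separated by other genes. Of 21 baits of the histone list with a loop in both Ino80KD libraries, 10 had a member, against 16.3% of all such baits, and these 10 carried 22 members. The bait of H2ac7, H2bc7 and H3c4 carried 5, the most of any bait. Its loop to the side of H2ac12, H2bc12 and H4c9, 1536 kb away, scored 8.41 and 16.7 in the Ino80KD libraries. Loops within 5 kb of it scored 9.97 and 5.63 in Brg1KD libraries and 18.2 and 11.6 in Control libraries, so the other libraries listed the contact at neighbouring ends.

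The bait of H2ac23, H2bc23 and H4c17 (chr13:21809345-21812204) was joined to a place with an end of H2bc4, 1879 kb away, with scores of 11.4 and 15.1. It was also joined to the bait of H2ac10 and H3c8 (chr13:23532786-23536173), 1724 kb away, with 8.14 and 8.55. For these 2 loops no other library listed a loop within 5 kb. The H4c17 and H3c8 windows shown above lie on these baits. The bait of H2ac10 and H3c8 had a further loop to the side of H2ac13, H2bc13 and H3c10 at 1815 kb, with scores of 11.3 and 10.5, and there Brg1KD replicate 2 (12.2) and both Control libraries (7.5 and 9.72) had loops within 5 kb. A loop from the bait of H2bc9 to that of H2ac22 and H2bc22, over 1757 kb, scored 5.36 and 8.13 with no neighbour elsewhere. Joined by ends within 50 kb, 11 histone members formed 1 locus spanning 1692 to 1831 kb. Leaving all members aside, the Ino80KD libraries listed 41 and 46 loops between its sides, the Brg1KD libraries 18 and 25, and the Control libraries 48 and 29. The Ino80KD counts lay within the range of the Control libraries.

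Next to the histone genes, Btn2a2, which encodes a butyrophilin of the immunoglobulin family, was joined to a group of tRNA genes 1559 kb away with scores of 18.2 and 13.5. Brg1KD replicate 2 (13) and Control replicate 1 (5.17) had loops within 5 kb, and the remaining 2 libraries had none. A second Btn2a2 loop, to Pom121l2 at 1498 kb, scored 9.17 and 9, and loops within 5 kb were listed in Brg1KD replicate 2 (10.4) and in Control libraries (5.97 and 16.1). The locus of Btn2a2 and Prss16, a thymus protease gene, held 4 members. Leaving members aside, it had 66 and 70 loops in Ino80KD libraries, 17 and 36 in Brg1KD libraries, and 63 and 48 in Control libraries.

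Several long loops joined genes of development. En2, Shh, Lhx2, Lhx5, Wnt10a and Gata3 belong to the list of developmental regulators, while Mnx1, Nkx2-3 and Sfmbt2 do not. The highest lower score of all belonged to Mnx1 (bait chr5:29477731-29479590), joined to a place inside Shh (chr5:28460001-28465253), the gene of the Sonic hedgehog morphogen, 1016 kb away. It scored 16.9 and 14.9 in Ino80KD libraries. Within 5 kb, loops were listed at 5.54 in Brg1KD replicate 1 and at 11.1 in Control replicate 1, and not in the second library of either group. The authors' deposited table gave this region a log2 fold change of 1.04 ± 0.48 (SE) with an unadjusted p of 0.031 for Ino80KD against Control. That contrast also chose the loops, and no adjusted p in it was under 0.05. En2, a midbrain and hindbrain homeobox gene, was joined to an end of Mnx1 at 1303 kb with scores of 9.96 and 11.4, where Control replicate 1 had a neighbour at 10.1. The bait of Shh itself was joined to a place inside Lmbr1, 863 kb away, with 6.47 and 5.72. No other library had a neighbour of this loop within 5 kb. Within 50 kb at both ends, Ino80KD libraries listed 3 and 5 loops, Brg1KD libraries 0 and 2 and Control libraries 2 and 3. Lmbr1 is known for holding a limb enhancer of Shh in an intron, and whether this loop reaches it was not tested.

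Sfmbt2 was joined to Gata3, a gene for a zinc finger factor of many lineages, by 2 members. One ended on a bait inside Gata3 (chr2:9880132-9882991) at 491 kb and scored 6.35 and 9.61. The other ended in the neighbouring fragment at 503 kb and scored 8.48 and 6.59. Control replicate 1 had a loop within 5 kb of either, at 5.15. These 2 had the smallest deposited p-values of the 592. Their log2 fold changes in the authors' deposited table were 1.32 ± 0.44 (SE, unadjusted p = 0.0029) and 1.59 ± 0.55 (unadjusted p = 0.0036). These values come from the contrast that chose the loops, and no adjusted p in it was under 0.05.

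Lhx2, a LIM homeobox gene of forebrain and eye, was joined to Lmx1b, a LIM homeobox gene of dorsal limb, over 4710 kb. The scores were 8.61 and 5.72, and a loop beside it at 4689 kb scored 8.59 and 5.7. Nkx2-3, a homeobox gene needed for the spleen, was joined to Tlx1, another spleen homeobox gene, over 1544 kb with 7.81 and 5.29. For these 3 loops no other library listed a neighbour within 5 kb. Within 50 kb at both ends, Control replicate 1 had 1 loop beside each Lhx2 loop. The authors' deposited table gave log2 fold changes of 1.79 ± 0.69 and 1.55 ± 0.67 at Lhx2 and 1.33 ± 0.51 at Nkx2-3. Lhx5, a LIM homeobox gene, was joined to the side of Tbx3, a T-box gene, at 767 kb with 8.93 and 7.05. Control replicate 1 had a neighbour of this loop at 5.52. Wnt10a, a Wnt ligand gene, was joined to Speg, a muscle kinase gene, at 635 kb with 6.56 and 6.6. There Brg1KD replicate 1 had a neighbour at 5.41.

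Of the developmental list, 13 of 40 baits with a loop in both Ino80KD libraries had a member, or 32.5% beside the 16.3% of all baits. The list's baits named further genes, described here after their values were seen. Nkx2-1, a lung, thyroid and forebrain homeobox gene, was joined to Foxa1, a forkhead factor of endoderm, at 1017 kb with 11.0 and 5.84, and Control replicate 1 had a neighbour at 5.43. Both Pax9 members ended at Foxa1 too, with Ino80KD scores of 5.08 and 7.97 for one and 5.84 and 9.04 for the other, and both Control libraries listed loops within 5 kb (11.1 and 12.7). The Foxa2 loop to Nkx2-2 scored 6.88 and 5.44, beside neighbours of 8.72 in Brg1KD replicate 1 and of 21.9 and 8.91 in Control libraries. At 5 kb, the list thus held loops with no neighbour elsewhere, such as those of Lhx2. It also held loops with a neighbour in both Control libraries, such as that of Foxa2.

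The remaining loops of highest lower score came from elsewhere. Hs3st3b1 and Hs3st3a1, the sulfotransferase genes shown above, were joined bait to bait over 514 kb (chr11:63921551-63923410 and chr11:64434212-64437773) with 10.2 and 11.6. Control libraries had loops within 5 kb at 7.94 and 6.88, and Brg1KD libraries had none. Pitx1, a hindlimb homeobox gene, was joined to a place 398 kb away with 10.1 and 9.79, beside a neighbour of 5.09 in Brg1KD replicate 1 and of 7.19 in Control replicate 1. Gramd1a, which encodes a sterol transfer protein, was joined to Pdcd2l over 3036 kb with 11.4 and 9.61, with no neighbour elsewhere. A bait with no gene name on chromosome 3 (92533772 to 92535131) was joined to the side of Lelp1 with 8.93 and 8.77. Neighbours of it scored 6.16 in Brg1KD replicate 2 and 5.98 in Control replicate 1. The bait of LOC115490200 had 2 members, at 7.3 and 12.2 and at 8.69 and 5.79, with no neighbours elsewhere. Pex5, also among the baits with most members, had a loop to the side of Foxj2 and Slc2a3 over 1604 kb. It scored 7.04 and 9.47, beside neighbours of 7.3 in Brg1KD replicate 1 and of 9.57 and 9.42 in Control libraries. Of 16 members with both scores at 8 or more, 3 had no loop within 5 kb in another library.

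**Figure D4:**
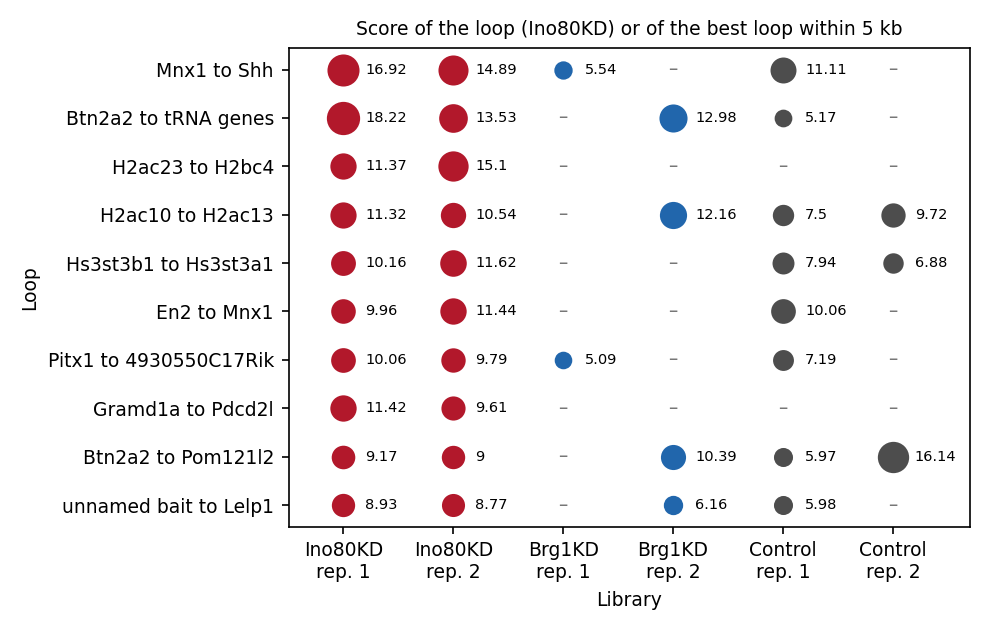
The 10 loops with the highest lower score (rows, bait to other end). Circles and numbers give the interaction score of the loop in the Ino80KD libraries and the best score of a loop with both ends within 5 kb in each Brg1KD and Control library; a dash means none was listed. Circle area follows the score, and scores come from separately called lists; 2 of the 10 rows, H2ac23 to H2bc4 and Gramd1a to Pdcd2l, have no neighbour in the other 4 libraries.

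Pluripotency genes had members at 3 of 5 baits with a loop in both Ino80KD libraries, all with low scores, where it was 16.3% of all such baits. Pou5f1, which encodes OCT4, was joined to an end of Mdc1, a DNA damage response gene, over 344 kb with 5.25 and 5.8, and loops within 5 kb were listed in Brg1KD replicate 1 (5.32) and both Control libraries (6.21 and 5.51). Sox2, the partner of OCT4, was joined to a place 120 kb away with 5.71 and 5.12. Tet1, a methylcytosine dioxygenase gene, had a loop of 15.3 kb within the gene with 5.19 and 5.44. Neither the Sox2 nor the Tet1 loop had a neighbour in the other libraries. With 5 baits the share is imprecise, and it was 2 of 4 when baits were named by gene ends on them alone.

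Subunit genes of INO80 had members at 2 of 3 baits, where it was 16.3% of all such baits. With 3 baits this share is imprecise, and it was 1 of 2 when baits were named by gene ends on them alone. Tfpt encodes an INO80 subunit and shares a bait with Prpf31. This bait was joined to Leng8 and Leng9 over 515 kb (7.06 and 6.34) and to Rdh13 over 800 kb (5.99 and 7.08). Neither loop had a neighbour within 5 kb elsewhere, but within 50 kb at both ends every Brg1KD and Control library listed loops. Near the Rdh13 loop, Ino80KD libraries had 13 and 15, Brg1KD libraries 9 and 4 and Control libraries 10 and 18. Near the Leng8 loop the counts were 3 and 5, 4 and 4, and 3 and 1, in the same order. Ruvbl2, which encodes an AAA ATPase of INO80 and other complexes, was joined to Bcat2 over 152 kb with 7.73 and 5.07, and Control replicate 1 had a neighbour at 6.22. Of the BAF list, 1 of 8 baits had a member: Smarce1, joined to the side of Eif1 at 1078 kb with 7.14 and 5.35.

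Hox genes, which pattern the body axis, had members at 3 of 22 baits, close to the 16.3% of all baits. The Hoxd3 loop of 389 kb scored 5.81 and 6.45 and had neighbours in both Brg1KD libraries (9.25 and 12) and both Control libraries (12.3 and 8.38). Hoxc11 scored 7.09 and 5.13, with a neighbour of 6.27 in Control replicate 1, and Hoxd1 scored 6.28 and 5, with a neighbour of 5.63 in Control replicate 2. Ribosomal protein genes had members at 3 of 10 baits and oxidative phosphorylation genes at 3 of 22. Rps27a, on a bait with Clhc1, was joined to Rtn4 and Eml6 over 202 kb (6.58 and 6.15), and Rps18 to H2-K1 over 34.0 kb (5.58 and 5.05), with neighbours in all 4 other libraries. Atp5pb, an ATP synthase subunit gene on a bait with Wdr77, was joined to Ddx20 and Kcnd3 over 290 kb (7.2 and 7.67) with no neighbour. Ndufa1, of respiratory complex I, had a loop of 759 kb with 7.13 and 5.21. The ATP synthase gene Atp5d and the cytochrome oxidase gene Cox6a2 were each at the other end of a member. Replication and repair genes (9 baits), polycomb genes (9) and architecture genes such as those of CTCF and cohesin (5) had 0 members.

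The longest member ran 41.9 Mb from Evx2, a homeobox gene beside the Hoxd cluster, and scored 8.83 and 6.96 with no neighbour elsewhere. The shortest, 2.39 kb, joined neighbouring baits of Mterf3 and Ptdss1 with 5.48 and 5.28, and Control replicate 1 had a neighbour at 5.37.

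Most members stood alone. With ends linked within 50 kb, the 592 formed 512 loci, of which 454 held 1 member and 48 held 2. Of the 10 loci with 3 or more members, named here because of that count, the second after the histone locus joined Ctns, P2rx5 and Trpv1 to Rap1gap2 on chromosome 11 with 5 members of 1211 to 1401 kb. Ctns encodes the lysosomal cystine transporter, P2rx5 and Trpv1 encode ion channels, and Rap1gap2 encodes a GTPase activator. Leaving members aside, the Ino80KD libraries listed 15 and 20 loops between its sides, Brg1KD libraries 8 and 14, and Control libraries 16 and 23, so Ino80KD overlapped Control. At Cntfr, Dctn3, Il11ra1 and Rpp25l on chromosome 4, where Cntfr and Il11ra1 encode cytokine receptors, the other loops numbered 22 and 17 in Ino80KD libraries, 12 and 8 in Brg1KD libraries and 13 and 13 in Control libraries. This locus was picked for its members, so its counts are a description. Adgrl1 and Asf1b on chromosome 8 had 10 and 8 other loops in Ino80KD libraries, 5 and 8 in Brg1KD libraries and 4 and 9 in Control libraries, which overlap. At Gmfg, Lrfn1, Med29 and Paf1 on chromosome 7 the other loops numbered 10 and 13 in Ino80KD libraries, 14 and 16 in Brg1KD libraries and 15 and 12 in Control libraries.

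The baits with members were not empty in the other groups. Of the 549, 471 also had a loop in a Brg1KD or Control library, and for 47 the members were the sole loops in any list. A further loop of both Ino80KD libraries, shared with another library, was at 202 of the 549, and 86 of these 202 (42.6%) had a loop listed in all 6 libraries. The 2826 baits with a loop in both Ino80KD libraries and no member have such a shared loop by construction, and 1139 of them (40.3%) had a loop in all 6. Leaving the members aside, these 549 baits had 916 and 954 loops in Ino80KD libraries, 603 and 646 in Brg1KD libraries and 889 and 774 in Control libraries. Per 1000 loops of the library these were 62.4 and 67.6 in Ino80KD, 49.2 and 49.8 in Brg1KD and 58.0 and 53.8 in Control, a difference that the choice of baits by Ino80KD listing can set. Members were on 20 chromosomes. Their share of the loops of both Ino80KD libraries was highest on chromosome 13, with 44 of 241 or 18.3% (13.9 to 23.6), and on X, with 22 of 122 or 18.0% (12.2 to 25.8), and lowest on chromosome 8, with 15 of 171 or 8.77% (5.39 to 14). Of the 44 on chromosome 13, 26 lay inside the histone region, which also held 98 of the shared loops.

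In the authors' deposited table for Ino80KD against Control, 585 of the 592 fell on an entry, on 582 entries in all. Each entry is a bait with a region that can be wider than the loop's other end, so members can share one. The median log2 fold change was 0.24, with an interquartile range of 0.10 to 0.38 and extremes of -0.49 and 1.79. It was above 0 for 508 of 585 (86.8%), against 50.4% of all 34774 entries. The headers do not state the direction, which was read from such loops themselves: of the Control-only loops 16.1% were above 0, with a median of -0.21. So these shares restate the rule and nothing is read from them. An unadjusted p under 0.05 with a higher value was given to 38 of 585, or 6.5%, where it was 0.912% of all entries. With a lower value it was given to none of them, where it was 0.382% of all entries. These p-values come from the contrast that chose the loops, so these shares too restate the rule. No adjusted p was under 0.05, neither for members nor for any entry (0%). The loops of both Ino80KD libraries that were also listed elsewhere had a median of 0.08. Members of 1 Mb or more had a median of 0.49, and those of 250 kb to 1 Mb one of 0.15, while those under 50 kb had 0.29. These medians rest on the same contrast, and the differences between them were not tested.

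The other members with the smallest p-values in the authors' deposited table came from genes of varied roles. Radil, which encodes an effector of the GTPase Rap, had a loop of 61.2 kb to its own gene end, given by the authors' deposited table with 0.56 ± 0.20 (SE, unadjusted p = 0.0043). Icam5, a neuronal adhesion gene, was joined to a place inside Dnmt1, the maintenance DNA methyltransferase gene. In the authors' deposited table it had 0.59 ± 0.22 (unadjusted p = 0.0069), and both Brg1KD libraries listed a neighbour (6.1 and 5.33). The authors' deposited table gave 0.45 ± 0.18 for Pim1, a kinase gene, and 0.49 ± 0.20 for the bait of Rpl41 and Zc3h10, joined to Esyt1. Emc4, of the ER membrane complex, had 2 members on 1 entry of 0.62 ± 0.25 in the same table. High scores did not always go with large values in the authors' deposited table: the Hs3st3b1 loop had 0.16 ± 0.33 and the Pitx1 loop 0.19 ± 0.32.

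The authors' deposited table for Brg1KD against Control shares its Control libraries with the Ino80KD table, so the values are given side by side without relating them. Of the 592 loops, 302 fell on an entry. Their median log2 fold change was -0.02, and 43.4% were above 0, against 48.7% of all entries. Both Brg1KD and both Control lists had to lack these loops, so the choice bears on these values too. With an unadjusted p under 0.05, 2 were higher (0.373% of all entries) and 7 lower (0.827% of all entries), and none passed after adjustment (0% of all entries). For the 301 with an entry in both tables, the medians were 0.20 for Ino80KD against Control and -0.02 for Brg1KD against Control. The Mnx1 to Shh loop had 0.00 ± 0.68 in the Brg1KD table, the Hs3st3b1 loop -0.45 ± 0.37 and the Pitx1 loop -0.56 ± 0.39.

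**Figure D5:**
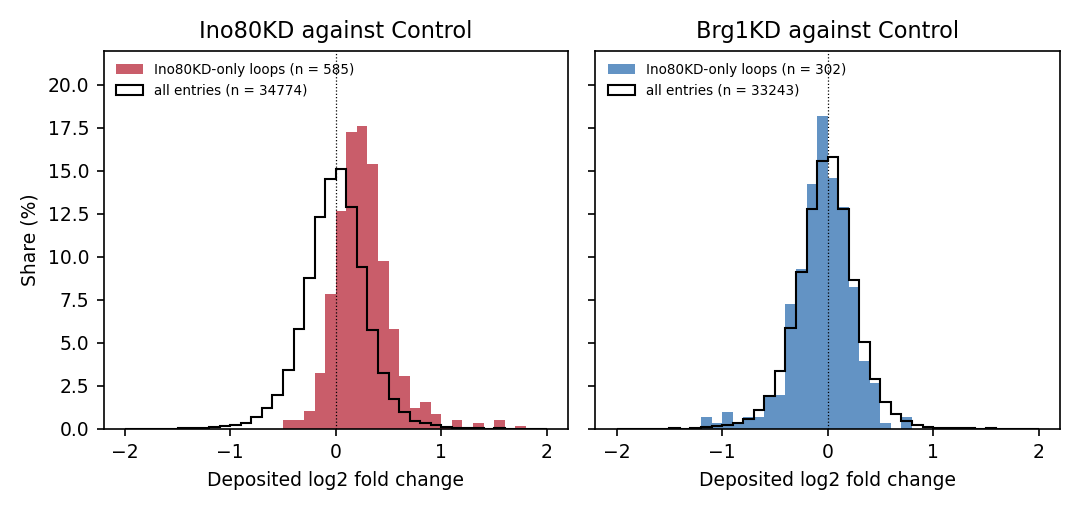
Share (%) of deposited log2 fold changes by value for the Ino80KD-only loops (filled) and for all entries of the table (line), for Ino80KD against Control (left, 585 loops) and Brg1KD against Control (right, 302 loops). The filled histogram is shifted above 0 on the left, median 0.24, and lies around 0 on the right, median -0.02. The choice of the loops entails the shift on the left. It bears on the right as well, since both Brg1KD and both Control lists had to lack these loops.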

How the data were processed

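Promoter-capture Micro-C was analysed in 6 libraries, 2 each of Ino80KD, Brg1KD and Control. Per library the authors deposited loops with an interaction score, which starts at 5. Scores are the authors' own. Members are ranked by the lower of their Ino80KD scores, which takes both Ino80KD lists to be scored alike, and no order is read between groups. Which caller made them was not stated here. Per the submitters' processing notes, bedtools and the mm10 build were used. Per the file headers, the authors' comparison tables hold a mean signal, log2 fold changes, standard errors, a statistic (another score), raw p-values and adjusted p-values. The files used here give no counts per library, so no test was run, and precision rests on Wilson intervals. 

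Python 3.11.15 with pandas 2.3.3, numpy 2.4.6 and scipy 1.17.1 selected loops by identical ends. Neighbours had both ends within 5 kb. The selection was tested on simulated lists. A fold change was taken from the entry whose bait was identical and whose region met the other end. Ends were named from RefSeq genes of GRCm38.p6: by a gene start on the fragment, then a gene end, then an end within 2 kb, then an overlapping gene. Genes named are the 10 baits with most members, the 10 members of highest lower score, the 10 of smallest deposited p, up to 4 per gene list (11 lists), the longest, the shortest, Ino80 and Smarca4. Members and lists were chosen with earlier results of these data known. Alternatives are given in the closing section.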

Additional observations from a re-analysis of the deposited data

How the results depend on the processing

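No paired analysis was possible because a loop listed in a library has no value where it is not listed, and the comparison has no test. Batch 1 alone as a replicate block, with loops of Ino80KD replicate 1 in neither other library of that batch, gave 7921 loops, a median span of 317 kb, 5.13% bait-to-bait loops and 68.0% of matched loops above 0. Asking both ends to lie within 5 kb gave 467 loops, a median of 276 kb and 5.14% bait to bait. A score of at least 6 in both Ino80KD libraries left 121 loops with a median of 379 kb and 19.8% at 1 Mb or more. The authors' group lists, which hold loops of either replicate, gave 12140 loops, 339 kb, 71.1% above 0 and 13.8% at 1 Mb or more. With Control libraries alone required to lack the loop there were 983 loops, with 206 kb and 7.93% at 1 Mb or more. Leaving out each library in turn gave 735 to 6418 loops, medians of 216 to 336 kb, 5.52% to 7.43% bait to bait, 70.3% to 87.4% above 0 and 9.14% to 13.9% at 1 Mb or more. Without Ino80KD replicate 1 (6418 loops) or replicate 2 (6336) the list is that of a single library, and without Control replicate 1 it held 902 loops. Chosen after seeing the data, leaving out the histone region gave 7.42% at 1 Mb or more, and leaving out loops with a neighbour within 5 kb elsewhere left 252, of which 3.97% joined baits. The causes of these shifts were not tested, beyond fewer or more libraries that must lack a loop. The other alternatives, among them keeping the chromosome 2 bait (593 loops), matching by midpoint (86.8% above 0) and naming by gene ends on the bait alone (34 listed baits in place of 38), stayed within 1.5 times for counts and within the main interval for shares and medians. Depth is unknown, and 471 of 592 loops score under 6, near the minimum.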
